A study of Drosophila melanogaster with 6 samples.

Results

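Arc1 and Arc2 are a pair of neighbouring Drosophila genes whose proteins descend from the Gag protein of a retrotransposon. They were picked by their symbols in the deposited table, 2 genes of 14026, with their changes in these data already known, so their values are given as a description and carry no test. The total RNA was from midguts of adult flies, all of them wild-type and of the Oregon-R strain. The 3 groups of 2 libraries were Mock day 0 (sucrose, flies aged 4 to 5 days), Pe day 0 (treatment labelled Pe, an abbreviation the labels do not spell out, flies aged 4 to 5 days) and Pe day 3 (Pe, flies aged 7 to 8 days). No sucrose group of the older age was analysed here, so treatment, day and age cannot be told apart between Pe day 3 and Mock. The series set out to look at the start and the end of midgut regeneration. Whether the libraries of a group came from separate dissections, or from pooled flies, is not given in the sources used here, so the errors given here cover differences among these libraries and could be technical in part.

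Gag proteins build the inner shell of retroviruses and retrotransposons, and Arc proteins kept the ability to assemble into virus-like capsids. In the fly, Arc1 capsids were described at the neuromuscular junction, where they carry Arc1 mRNA in extracellular vesicles from motor neurons to muscle by way of the 3' untranslated region of that mRNA. Arc1 also takes part in fat storage and in the behaviour of starved flies. The mammalian gene of the same name, which comes from a separate domestication of a related element, acts in synaptic plasticity.

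Both genes lie on chromosome arm 2R. Arc1 (FBgn0033926) covers 2R:14357927-14360297 on the minus strand and Arc2 (FBgn0033928) covers 2R:14361924-14362825 on the plus strand, in BDGP6.54 coordinates. They face away from each other across 1626 bases, which hold the pseudogene CR10102 on the minus strand. Each has 1 annotated transcript with 1 exon and no intron, and neither overlaps another annotated gene. The transcripts differ mostly behind the coding part. Arc1 has a 5' UTR of 97 bases, a reading frame for 254 amino acids and a 3' UTR of 1509 bases, within 2371 bases in all. Arc2 has a 5' UTR of 116 bases, a reading frame for 193 amino acids and a 3' UTR of 204 bases, within 902 bases in all.

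The deposited file holds comparisons rather than libraries. For each gene it lists a mean normalized count across the 6 libraries, that is, reads after division by each library's size factor, and log2 fold changes of both Pe groups against Mock with standard errors (SE). Group means were worked out from these values, and values of single libraries were not. Each library was estimated to hold 17592677 to 20117275 reads. The header names no groups. The first comparison was taken as Pe day 0 and the other as Pe day 3 because the title of the table lists the groups in that sequence, and every statement on a day rests on it. Total normalized counts were not equal between groups, so that scaling to library totals adds 0.67 to every log2 fold change at Pe day 0, adds 0.03 at Pe day 3 and takes 0.64 from the change between the Pe groups. The unit CPM below is on that second scale, a gene's reads scaled to an equal total in every group.

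Arc1 was low in Mock and high in both Pe groups. Its group mean was 99.01 normalized counts in Mock (95% interval 79.6 to 123), 1622 at Pe day 0 (1385 to 1900) and 1407 at Pe day 3 (1198 to 1652). Both Pe intervals lay far above that of Mock and overlapped each other. In CPM the Arc1 level was 4.44 in Mock, 115.4 at Pe day 0 and 64.3 at Pe day 3, so on this scale the Pe groups stood further apart. About 78.0 to 84.1 estimated Arc1 reads per library stood behind the Mock level and 2304 to 2321 behind that of Pe day 0. In the authors' deposited table the Arc1 level exceeded that of Mock 16.4-fold at Pe day 0 (log2 fold change 4.03, SE 0.20) and 14.2-fold at Pe day 3 (3.83, SE 0.20).

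Arc2 was lower than Arc1 in Mock, stood further above Mock at Pe day 0 in fold terms, and was much nearer to its Mock level at Pe day 3. Its group mean was 28.7 normalized counts in Mock (95% interval 20.04 to 41.0), 1208 at Pe day 0 (972 to 1502) and 135 at Pe day 3 (105 to 173). None of the 3 Arc2 intervals overlapped. In CPM the Arc2 level was 1.28 in Mock, 85.9 at Pe day 0 and 6.16 at Pe day 3. The Mock level of Arc2 rested on about 22.6 to 24.3 estimated reads per library, and the log2 SE of Arc2 was wider than that of Arc1 in each group, 0.26 against 0.16 in Mock and 0.16 against 0.12 at Pe day 0, where Arc2 had 1716 to 1728 estimated reads per library. In the authors' deposited table, Arc2 exceeded Mock 42.1-fold at Pe day 0 (5.40, SE 0.31) and 4.70-fold at Pe day 3 (2.23, SE 0.32).

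**Figure D1:**
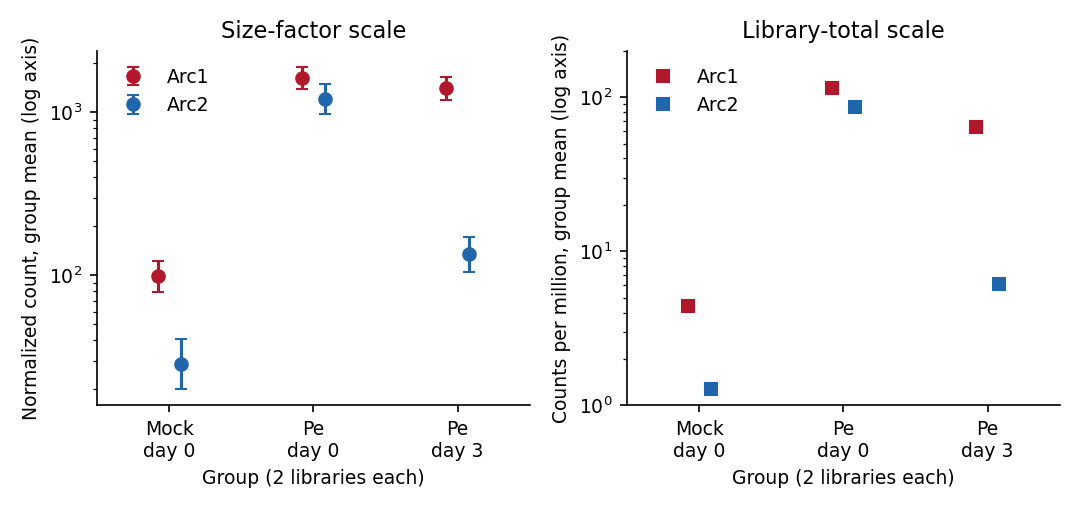
Group means of Arc1 and Arc2 in the 3 groups of 2 libraries, in normalized counts with 95% intervals (left) and in CPM without intervals (right), both on log axes. Arc1 stood at 99.01, 1622 and 1407 normalized counts and Arc2 at 28.7, 1208 and 135.

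The neighbours parted between the Pe groups. From Pe day 0 to Pe day 3 the Arc1 level went from 1622 to 1407 normalized counts, a log2 difference of -0.21 (SE 0.17), whose 95% interval ran from 1.44-fold lower to 1.09-fold higher. On library totals the same difference was -0.84, or 1.79-fold lower. Whether Arc1 held its level between the Pe groups thus depends on the scale. Arc2 went from 1208 to 135 normalized counts, a log2 difference of -3.17 (SE 0.24), or 8.97-fold lower, and 14.0-fold lower on library totals. The log2 change of Arc2 exceeded that of Arc1 by 1.36 (SE 0.37) at Pe day 0 and fell short of it at Pe day 3, with a difference of -1.60 (SE 0.38). Between the Pe groups the log2 changes differed by -2.96 (SE 0.30). The SEs of these differences take the genes as independent, though both were measured in the same libraries. These 3 differences between the genes do not move with the scale, since scaling shifts both genes alike, and they are descriptions, since the pair was chosen for its pattern.

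Set per length, the order of both genes switched. In normalized counts per kilobase of transcript Arc1 stood at 41.8 and Arc2 at 31.8 in Mock, an Arc1 level 1.31 times that of Arc2 (log2 ratio 0.39, SE 0.31). At Pe day 0 the values were 684 for Arc1 and 1339 for Arc2, so Arc2 was 1.96 times Arc1 (log2 ratio of Arc1 to Arc2 -0.97, SE 0.20). At Pe day 3 Arc1 stood at 593 and Arc2 at 149 per kilobase, an Arc1 level 3.97 times that of Arc2 (log2 ratio 1.99, SE 0.22). The Mock ratio lay less than 2 SE from equality, unlike the ratios of both Pe groups. The SEs of these ratios, too, take the genes as independent. Reads shared by Arc1, Arc2 and CR10102, had they been split among them by the authors' counting, would touch these ratios, and this was not tested.

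The rule asked how the pair compares with genes of similar abundance. Around Arc1 (mean over all libraries 1043 normalized counts) the 250 genes just below and the 250 just above had means from 914 to 1194. At Pe day 0 the log2 fold changes of these 500 genes had a median of -0.08 and ran from -1.38 to 1.47 between the 5th and the 95th percentile, and 5 of the 500 exceeded Arc1 at 4.03. These 5 genes, named after their values were seen, were upd3 (7.43, SE 0.31), a JAK-STAT cytokine gene, CG2909 (5.13, SE 0.24), the nicotinamidase gene Naam (5.10, SE 0.18), the BMP-binding protein gene cv-2 (4.70, SE 0.21) and CG14906 (4.59, SE 0.19), in the authors' deposited table. By Pe day 3, 0 of the 500 genes exceeded Arc1. The highest gene in that window was ple (2.31), which encodes tyrosine hydroxylase, against a median of 0.06 and a 95th percentile of 0.59. For the 5 genes that had exceeded Arc1 at Pe day 0, the log2 fold changes at Pe day 3 in the authors' deposited table were 1.58 for upd3, 0.81 for CG2909, 0.06 for Naam, 1.24 for cv-2 and 1.23 for CG14906, beside 3.83 for Arc1. Both comparisons share the Mock libraries.

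Around Arc2 (mean 457 normalized counts) the window ran from 412 to 522. At Pe day 0 the 500 genes had a median log2 fold change of 0.06 and a 95th percentile of 1.45, and 2 of the 500 exceeded Arc2 at 5.40. These were the lysozyme gene LysX (7.67, SE 0.49) and CG14695 (7.02, SE 0.46) in the authors' deposited table, both named after their values were seen. Against Arc2 at 2.23 on Pe day 3, 1 gene of the 500 was higher, CG14695 (5.93, SE 0.47 in the authors' deposited table), with a 95th percentile of 0.52. In the change from Pe day 0 to Pe day 3, 1 gene of the 500 lay below Arc2 (-3.17), LysX (-6.27), whereas Arc1 (-0.21) lay inside the bulk of its own window, with 328 of 500 genes above it.

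**Figure D2:**
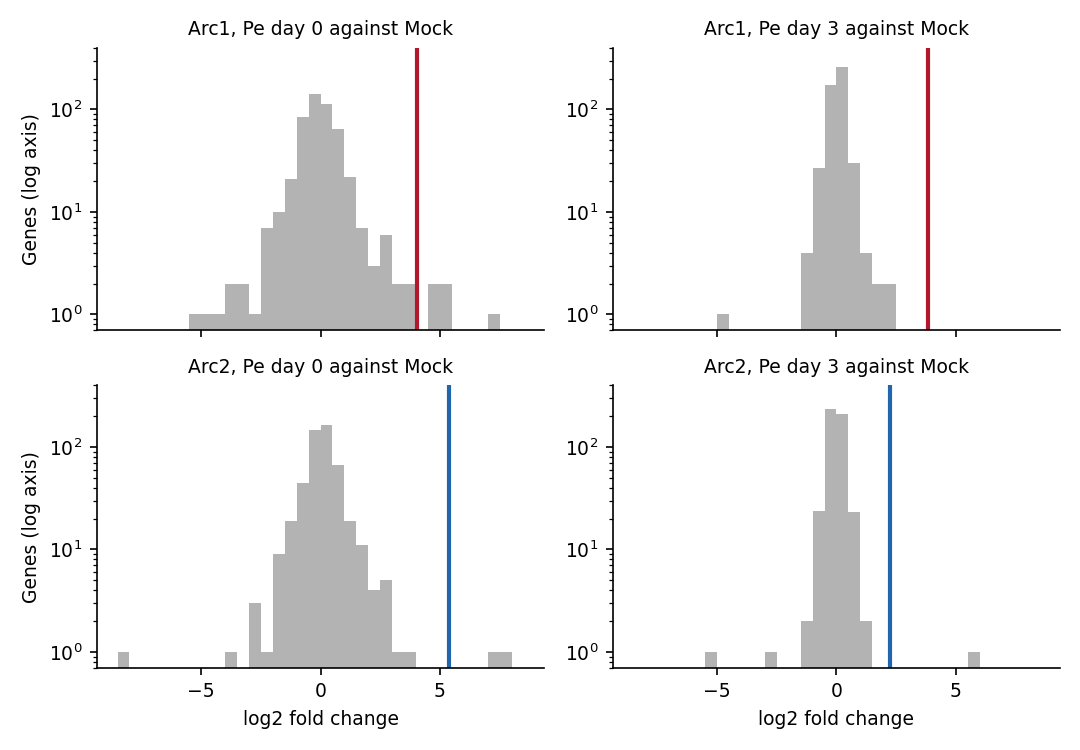
Histograms of log2 fold changes of the 500 genes of similar mean around Arc1 (upper row) and Arc2 (lower row) at Pe day 0 (left) and Pe day 3 (right) against Mock, with a log axis of gene counts and the member as a vertical line. Genes beyond Arc1 numbered 5 at Pe day 0 and 0 at Pe day 3, and genes beyond Arc2 numbered 2 and 1.

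Over the whole table, Arc1 ranked 238 of 10393 genes by log2 fold change at Pe day 0 and 9 of 8316 at Pe day 3. Arc2 ranked 92 of 10393 and 29 of 8316. These denominators are the genes to which the authors gave an adjusted p-value, and both members were among them in both comparisons. The lowest mean among these genes was 1.24 normalized counts at Pe day 0 and 20.8 at Pe day 3. Genes of low count thus entered the ranking at Pe day 0 alone, so the ranks of a member cannot be compared between the days. Both members had a larger dispersion than the middle gene of similar mean, Arc2 the more so. This dispersion is the model value that yields the deposited SE, and no spread between single libraries was measured. It corresponds to a coefficient of variation of 11.2% for Arc1, beside 9.11% for the median dispersion of its window. Of the 500 window genes 92 had a higher dispersion than Arc1. For Arc2 the coefficient was 15.5% beside 10.5%, and 25 of 500 window genes were more dispersed. Beside genes of similar Mock level the order was the other way round, with median coefficients of 17.3% for Arc1 and 30.4% for Arc2, and 497 and 494 of 500 genes were more dispersed than the member.

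Genes with a pattern most like each member were found by the distance between log2 fold changes at Pe day 0 and Pe day 3 over 3 groups, among the 8315 other genes tested in both comparisons. Arc1 had no close match. The nearest gene, CG10513, lay 1.19 log2 units away (3.17, SE 0.94 at Pe day 0 and 3.01, SE 0.94 at Pe day 3, in the authors' deposited table). After it came GstD9 (5.27 and 4.09), a glutathione S-transferase gene, Sodh-2 (5.17 and 3.13), a sorbitol dehydrogenase gene, and rho (4.97 and 2.75), which encodes a protease that releases EGFR ligands. CG7298 (2.87 and 2.70) and ver (4.08 and 2.17), a telomere-capping gene, completed the 6 nearest, the last at a distance of 1.65. Only 1 of these 6 remained among the nearest when differences were divided by their standard errors, a measure that favours genes with wide errors such as Arr1 (SE 3.15 at Pe day 0).

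Arc2 had company. All 6 of its nearest genes lay within 0.53 log2 units, and 5 of them remained nearest when differences were divided by their standard errors. CG6996 was the closest (5.24, SE 0.39 at Pe day 0 and 2.28, SE 0.41 at Pe day 3) at a distance of 0.17. Next came Hsp22 (5.51, SE 0.44 and 2.10, SE 0.47), which encodes a small heat shock protein of mitochondria, at 0.18. Hsp70Bbb (5.13, SE 2.08 and 2.23, SE 2.09) and Hsp68 (5.69, SE 0.96 and 2.68, SE 0.97), both of the Hsp70 family of chaperones, were also among the 6, with wide errors. The remaining genes were CG32195 (5.14, SE 0.15 and 2.17, SE 0.15) and CG6933 (4.91, SE 0.50 and 2.24, SE 0.52). All of these values stand in the authors' deposited table.

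**Figure D3:**
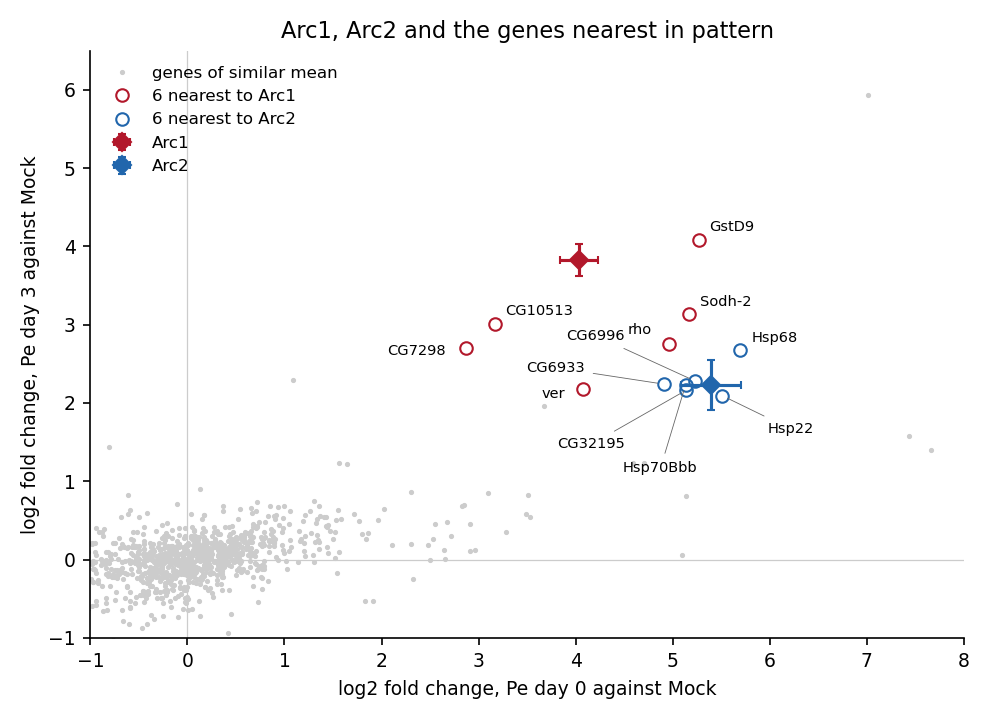
Log2 fold changes at Pe day 0 (x) and Pe day 3 (y) against Mock for Arc1 and Arc2 (diamonds with SE), the 6 genes nearest to each (open circles) and the genes of similar mean inside the plotted range (grey). The nearest gene to Arc1 was 1.19 log2 units away and all 6 nearest to Arc2 were within 0.53.

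The flanking genes with a mean above 20 normalized counts had smaller log2 fold changes than the pair. Among the 11 genes next to the pair (5 on each side and CR10102 between them), 9 had an adjusted p at Pe day 0 and 2 were called higher, where 46.6% of all tested genes were called, 23.0% higher and 23.6% lower. Of the 6 with an adjusted p at Pe day 3, 2 were called, both higher, against 17.7% of all tested genes, 8.75% higher and 8.92% lower. They were the same genes: tej, a Tudor-domain gene of the germline piRNA pathway (1.43, SE 0.51 at Pe day 0 and 1.83, SE 0.52 at Pe day 3), and Shrm, an actin-organising Shroom gene (0.43, SE 0.15 and 0.62, SE 0.15), as the authors' deposited table has it. Scaled to library totals, 5 were called at Pe day 0 and 2 at Pe day 3, against 62.3% and 17.8% of all tested genes. The gene next to Arc1, CG8617, stood at 0.11 (SE 0.28) and 0.00 (SE 0.29), and Tfb1, a TFIIH subunit gene next to Arc2, at 0.07 (SE 0.13) and 0.21 (SE 0.13), in the authors' deposited table. Neither passed the test on the deposited scale, and both passed it at Pe day 0 with library totals, with log2 fold changes of 0.78 for CG8617 and 0.74 for Tfb1. Of each of these values, 0.67 is the shift that library totals add to every gene at Pe day 0. CR10102 itself had a fitted level of 0.22 normalized counts in Mock, under 1 read per library, so no fold is given. Its level was 38.2 normalized counts at Pe day 0 and 14.7 at Pe day 3. It was not called at Pe day 0 (SE 4.79) and had no adjusted p at Pe day 3, too imprecise to be set against the pair. The same holds for CG34184 (2.16, SE 1.47) and CG34442 (2.18, SE 2.47) at Pe day 0 in the authors' deposited table, which were not called and had means of 3.59 and 1.33 normalized counts. CG34443 and CG34444 were listed at a mean of 0.

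**Figure D4:**
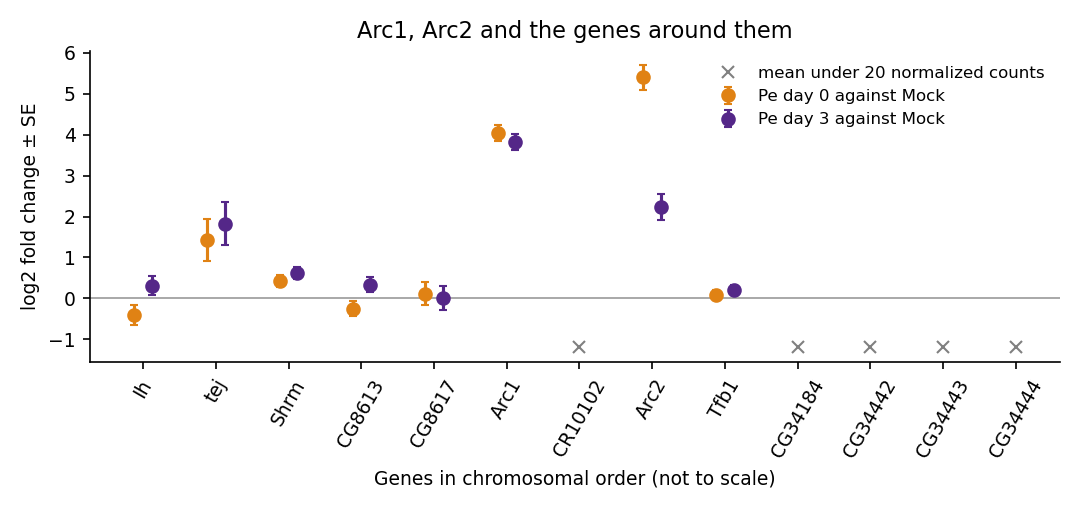
Log2 fold changes with SE at Pe day 0 and Pe day 3 against Mock for Arc1, Arc2 and the genes around them in chromosomal order, spacing not to scale. Crosses mark genes with low or zero counts, CR10102 included. Arc1 (4.03 and 3.83) and Arc2 (5.40 and 2.23) stood above each flanking gene drawn with an error bar.

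The list of other host genes of retroelement origin held 2 genes, and both differed less from Mock than the pair did. Gagr, derived from a Gag, was higher at Pe day 0 (0.74, SE 0.22) and at 0.37 (SE 0.23) at Pe day 3, and Iris, derived from an envelope gene, was lower at Pe day 0 (-1.62, SE 0.67) and at -0.24 (SE 0.64) at Pe day 3, in the authors' deposited table. The call of Iris, whose mean was only 20.9 normalized counts, was lost with library totals. Extracellular vesicle and ESCRT genes were listed as genes of vesicle budding and release, and their part in carrying Arc capsids was not tested. They numbered 15 higher and 0 lower of 21 at Pe day 0 (20 and 0 with library totals). Over all tested genes 23.0% were higher there, and 53.4% with library totals. Their median log2 fold change was 0.88, that of all tested genes 0.03. For Pe day 3 the count was 7 higher and 0 lower of 20, against 8.75% higher over all tested genes, and the medians were 0.29 and 0.01. Their changes were smaller than those of the pair: ALiX, an ESCRT adaptor gene, stood at 1.69 (SE 0.14) at Pe day 0 and Hrs, which sorts cargo into endosomes, at 0.77 (SE 0.12) at Pe day 3, in the authors' deposited table.

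Arc is known in neurons as a gene switched on by activity. Of 9 activity-regulated transcription factor genes 5 were higher and 0 lower at Pe day 0 (8 and 0 with library totals; median 0.76), and 2 of 8 were higher at Pe day 3 (median 0.46). Over all tested genes 23.0% were higher at Pe day 0 (53.4% with library totals) and 8.75% at Pe day 3, with medians of 0.03 and 0.01. The nuclear receptor gene Hr38 stood at 1.65 (SE 0.63) and 0.77 (SE 0.66), and kay, the fly Fos gene, at 2.01 (SE 0.12) and 0.99 (SE 0.12), in the authors' deposited table. The zinc finger gene sr stood at 0.69 (SE 0.81) and 2.21 (SE 0.80) there, not called at Pe day 0 and with no adjusted p at Pe day 3. Genes of fasting and insulin signalling went both ways, 5 higher and 4 lower of 13 at Pe day 0 (6 and 1 with library totals; median -0.37) and 2 higher and 0 lower of 12 at Pe day 3 (median 0.09), against 23.0% higher and 23.6% lower over all tested genes at Pe day 0. One of them, ImpL2, which encodes a secreted insulin antagonist, stood at 2.25 (SE 0.51) and 2.15 (SE 0.51) in the authors' deposited table. Thor, the translation inhibitor 4E-BP, stood at -1.26 (SE 0.15) and 0.44 (SE 0.15) in the authors' deposited table.

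**Figure D5:**
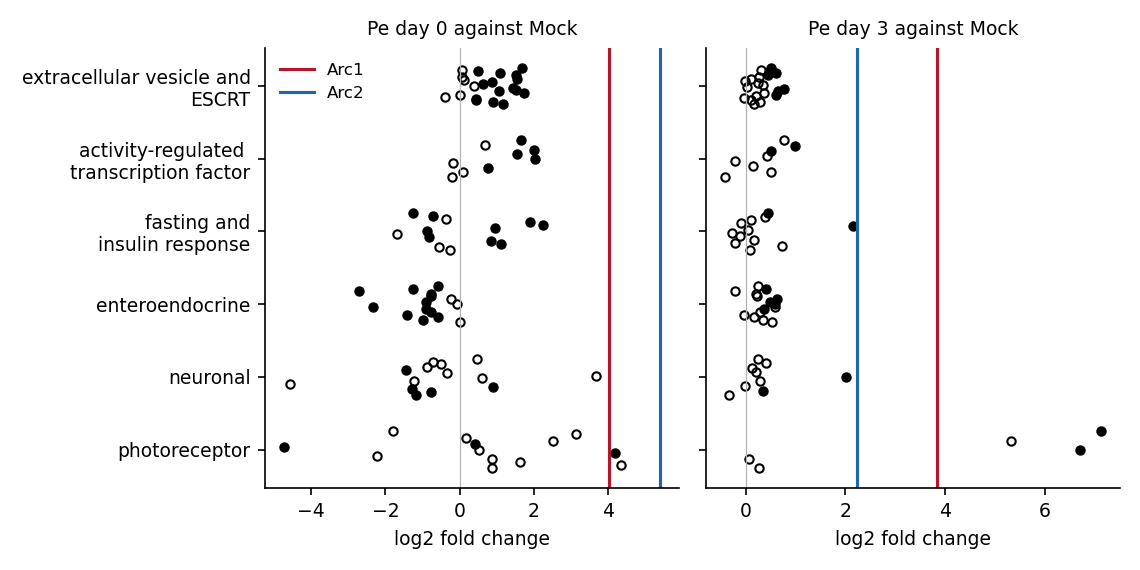
Log2 fold changes at Pe day 0 (left) and Pe day 3 (right) against Mock for members of 6 gene lists that had an adjusted p, filled where it was under 0.05, with Arc1 and Arc2 as vertical lines. At Pe day 3 the genes plotted to the right of Arc1 were photoreceptor genes, with SEs of 1.66 for ninaE, 3.14 for Arr1 and 2.14 for Arr2.

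Levels in whole midgut cannot tell more cells of a type from more RNA per cell. Arc1 is expressed in neurons, so markers of neural and endocrine cells are given beside it, and their part in the change of Arc1 and Arc2 was not tested. Of 15 enteroendocrine genes, which mark the hormone cells of the gut, 12 were lower and 0 higher at Pe day 0 (4 and 3 with library totals), where Arc1 and Arc2 were high. Over all tested genes 23.6% were lower and 23.0% higher at Pe day 0 (8.97% and 53.4% with library totals). The summed level of that list was 19777 normalized counts in Mock, 9556 at Pe day 0 and 22641 at Pe day 3, of which AstC alone made 4816, 739 and 4133. The peptide hormone genes AstC and Tk stood at -2.70 (SE 0.11) and -0.78 (SE 0.11) at Pe day 0 in the authors' deposited table. Library totals add 0.67 to each log2 fold change at Pe day 0, so the sum and both genes fell less on that scale. On Pe day 3, 5 of 15 were higher than Mock and 0 lower, among them CCHa2 (0.49, SE 0.13 in the authors' deposited table), also a peptide hormone gene. The shares over all tested genes were 8.75% higher and 8.92% lower at Pe day 3. Between the Pe groups 15 of 15 were higher at Pe day 3 (10 with library totals), where 52.7% of all tested genes were called, 27.4% higher and 25.3% lower. With library totals 9.36% of all tested genes were higher between the Pe groups.

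Among 14 neuronal genes 1 was higher and 4 were lower at Pe day 0 (2 and 0 with library totals), and 2 of 9 were higher at Pe day 3, with summed levels of 2606 in Mock, 2769 at Pe day 0 and 3369 at Pe day 3 normalized counts. Over all tested genes 23.0% were higher and 23.6% lower at Pe day 0 (53.4% and 8.97% with library totals), and 8.75% were higher at Pe day 3. The list's median log2 fold change was -0.74 at Pe day 0 and 0.23 at Pe day 3. Syx1A alone went from 915 to 1711 normalized counts between Mock and Pe day 0. Without Syx1A, left out after its values were seen, the sums were 1691, 1058 and 2252. Most of these sums came from unc-13, at 1273 in Mock, 749 at Pe day 0 and 1621 at Pe day 3. By contrast, elav stood at 91.6, 126 and 108 and was not called against Mock on either day. Both genes were named after their values were seen. Syx1A, a syntaxin gene of vesicle fusion that the vesicle list holds too, stood at 0.90 (SE 0.14) and 0.29 (SE 0.15) in the authors' deposited table, called at Pe day 0. The calcium channel gene cac was at -1.45 (SE 0.44) and 2.001 (SE 0.40) in the authors' deposited table, lower and then higher than Mock. The lower call of cac at Pe day 0 was lost with library totals. Of 13 photoreceptor genes 2 were higher and 1 lower at Pe day 0, and 2 of the 5 with an adjusted p were higher at Pe day 3 (over all tested genes 23.0% higher and 23.6% lower, and then 8.75% higher). Their median log2 fold change was 0.87 at Pe day 0 and 5.33 over those 5 at Pe day 3. Summed levels of the 13 genes were 327 in Mock, 581 at Pe day 0 and 766 at Pe day 3. The scaffold gene inaD was at 4.19 (SE 0.61) and 0.26 (SE 0.70), and the rhodopsin gene ninaE at -1.80 (SE 2.20) and 7.13 (SE 1.66) in the authors' deposited table. No gene of these 3 lists had a mean of 0.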

How the data were processed

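The deposited file is 1 table of the authors' comparisons for 14026 genes. Per the file headers it holds a mean signal over all libraries (reads over size factors), log2 fold changes with standard errors, a score (the Wald statistic), p-values and adjusted p-values. DESeq2 1.22.0, Salmon 0.11.3, fastp 0.19.5, CASAVA 1.8 and the build BDGP6 are named in the submitters' processing notes, without roles. Strand use and annotation release: not given in the sources used here. TruSeq libraries were made from TRIzol RNA, per the labels' protocols.

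The authors' deposited adjusted p-values (10393 genes at day 0, 8316 at day 3) were used at 0.05. Each library's size factor was read off genes that hold 1 read in that library alone (42 to 165 genes each), group means from the deposited mean and both fold changes, and dispersions from the deposited standard errors. From these followed the 95% intervals and the Pe day 3 against Pe day 0 Wald test (normal p, Benjamini-Hochberg over 8316 genes; scipy 1.17.1). This step was run on simulated counts whose standard errors were set from the known dispersion. The effect of error in estimated dispersions was therefore not tested. The planned edgeR fit needs counts, which were not used here.

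Annotation was Ensembl release 115, where 13928 of the table's IDs matched; transposable elements were left out of the chromosomal neighbours. Members and the 12 gene lists were chosen with earlier results of these data known. Named genes were the pair, the 6 nearest to each in pattern, the 5 on each chromosomal side, in each list the member with the smallest p on each day, and Hr38, sr, cac, ninaE, ImpL2, Tk, Gagr and Iris. Further genes are marked where named.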

Additional observations from a re-analysis of the deposited data

How the results depend on the processing

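Library totals in place of size factors moved the calls to 5545 higher and 932 lower genes at Pe day 0 (2391 and 2455 as deposited) and to 778 higher and 5248 lower between the Pe groups (2279 and 2100). The log2 fold changes at Pe day 0 then became 4.70 for Arc1 and 6.06 for Arc2, and those between the Pe groups -0.84 and -3.80. No direction of the pair changed under library totals. A minimum mean of 50 normalized counts kept each count of calls within 1.5 times. The share of window genes above Arc1 at Pe day 0 was 1.0%, and 2.0% with 100 genes on each side. That between the Pe groups was 65.6%, and 51.8% among genes of similar Mock level. For Arc2 it was 0.4%, 0.2% and 99.8% in the 3 comparisons, 0%, 0% and 100% with 100 genes on each side, and 0.6% at Pe day 3 and 98.2% between the Pe groups among genes of similar Mock level. Of the 6 nearest genes 1 was shared for Arc1 with differences divided by standard errors. No paired analysis was possible because the table holds no values per library; leaving out each replicate and a second count tool were not run for that reason.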

Other observations

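Lists of other cell types are given beside Arc1 and Arc2 as counts of genes called. Over all tested genes 23.0% were higher and 23.6% lower at Pe day 0 (53.4% and 8.97% with library totals), and 8.75% higher and 8.92% lower at Pe day 3. Of 14 visceral muscle genes 12 were lower and 0 higher at Pe day 0 (7 and 2 with library totals), among them up, the troponin T gene (-1.31, SE 0.12 in the authors' deposited table), and at Pe day 3 0 of 14 were called in the authors' deposited table. Of 10 progenitor genes 3 were higher and 5 lower at Pe day 0 (5 and 2 with library totals), with mira, which encodes an adaptor of asymmetric division, at -1.76 (SE 0.15 in the authors' deposited table), and 0 of 10 were called at Pe day 3. Among 9 enterocyte genes 4 were higher and 4 lower at Pe day 0 (5 and 2 with library totals) and higher in 4 of 9 at Pe day 3, and caup had a mean of 0. Fat body and female reproductive genes numbered 4 lower and 0 higher of 8 at Pe day 0 (3 with library totals), with the lipoprotein gene apolpp at -2.00 (SE 0.21 in the authors' deposited table), and 0 of 4 were called at Pe day 3. Haemocyte genes numbered 1 higher and 3 lower of 8 at Pe day 0 (2 and 2 with library totals) and higher in 1 and lower in 1 of 7 at Pe day 3.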
